A study of Mus musculus with 8 samples.

Results

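The genes described here are 29 mouse genes of the neural lineage and of neurons, read in the transcriptomes of induced pluripotent stem cells (iPSCs) with and without PIWI proteins. They were chosen by name, and each RefSeq identifier in the count table was matched to its gene symbol. Where a symbol had several records, the record with the highest mean count stood for the gene. All 29 symbols were found among the 27052 records of the table. Of the 29 records, 22 held 5 or more reads in 4 or more of the 8 libraries and so passed the filter, beside 16235 records of the whole table. A further 2 of the 22, Fabp7 and Map2, averaged under 10 normalized counts in both genotypes, which left 20 members that could be judged and 9 that were too low. A normalized count is the read count of a record divided by the size factor of its library.

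The study asked whether cells can be reprogrammed to pluripotency without PIWI proteins, which bind small RNAs and silence transposons in the germline. The TKO group held 4 iPSC clones (35, 37, 47 and 48) that lack functional Miwi, Mili and Miwi2, and the Ctrl group held 4 clones (33, 34, 41 and 43) from littermates. The Ctrl genotype is given as triple heterozygous in the culture methods and as wild type or heterozygous elsewhere, so the Ctrl clones may carry mutant alleles as well. Both groups came from embryonic fibroblasts of a mixed background that carried an Oct4-GFP reporter. They were reprogrammed with retroviruses for OCT4, SOX2, KLF4 and c-MYC, picked as single colonies and grown with LIF on fibroblast feeder cells, so each library is 1 clone and can hold RNA of feeder cells. No source says how many embryos the clones came from. The p-values therefore measure the spread between clones. In such bulk libraries, fewer cells of a type cannot be told apart from less RNA of a gene per cell.

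Neural genes are silent or low in pluripotent cells, and many are held there by repressive chromatin until differentiation starts. When embryonic stem cells become neural, progenitor genes such as Sox1, Pax6 and Nes come on first. Proneural factors and Notch ligands follow, and then the cytoskeletal, synaptic and adhesion genes of neurons. Oligodendrocyte precursors and motor neuron progenitors are marked by the paired factors Olig1 and Olig2.

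The libraries held 24593995 to 52457455 counted reads in the TKO clones and 8983203 to 24688324 in the Ctrl clones, so depth and genotype cannot be fully told apart. The deepest libraries were TKO 35 and TKO 37 and the shallowest were Ctrl 33 and Ctrl 34. Pou5f1, which encodes OCT4, averaged 17070 ± 1535 normalized counts in TKO clones and 26090 ± 2102 in Ctrl clones (log2 difference -0.61, edgeR adjusted p = 0.0380), and Nanog differed by 0.01 on the log2 scale (adjusted p = 0.987). The summed level of 9 pluripotency markers was 146100 to 161900 normalized counts in TKO clones and 124200 to 168500 in Ctrl clones. Among the targeted genes, Mili (Piwil2 in the table) stood at 3844 to 10085 normalized counts in TKO clones and 758 to 1028 in Ctrl clones. Miwi (Piwil1) stood at 2.41 to 4.53 in TKO clones and 8.13 to 28.8 in Ctrl clones. The lowest Ctrl value of Miwi, in Ctrl 33, is only 3 reads in that shallow library, so Miwi was near the floor. The Mili allele deletes part of the gene, and a count over a whole record cannot show whether the deleted exons were read, so it does not check the labels. Miwi2 was not analysed here. The clone numbers fell into a series in the thirties (TKO 35 and 37, Ctrl 33 and 34) and one in the forties (TKO 47 and 48, Ctrl 41 and 43). What the numbers mean is not given in the labels. The series entered the model as a term because each holds 2 clones of each genotype.

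In the TKO clones, 5 members stood higher than in every Ctrl clone and 3 stood lower. The members that were higher were the transcription factors Olig1 and Olig2, the guidance receptor gene Sema5a, the synapse organizer Cbln1 and the glutamate receptor subunit Grin1. Those that were lower were the progenitor genes Nes and Pax6 and the activity-dependent factor Npas4. With genotype alone in the model (edgeR quasi-likelihood test, Benjamini-Hochberg adjustment over 16235 records, threshold 0.05), 1 member passed as higher, Olig1, and 0 as lower. Over all records 0.0862% passed as higher and 0.154% as lower. Without adjustment, 6 members were higher and 4 lower at p under 0.05, beside 1205 and 1200 of all records. DESeq2 called 4 members as higher and 1 as lower, beside 253 and 260 of all records. Once clone series was added to the model, the 5 higher members and the 3 lower members all passed, where 2.60% of all records passed as higher and 3.10% as lower. Groups that did not overlap were also found in 4.10% of all records with TKO higher and 4.23% with TKO lower. Grin1 passed the filter on low counts only through the TKO clones, and Npas4 reached 5 reads in all 4 Ctrl clones but in 1 TKO clone, so these 2 add no support to the count. The study itself picked Olig1, Olig2, Sema5a, Grin1, Cbln1 and Npas4 out of these libraries, so their directions are not independent evidence. The median log2 difference was -0.09 over the 22 tested members and -0.01 over all tested records.

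**Figure D1:**
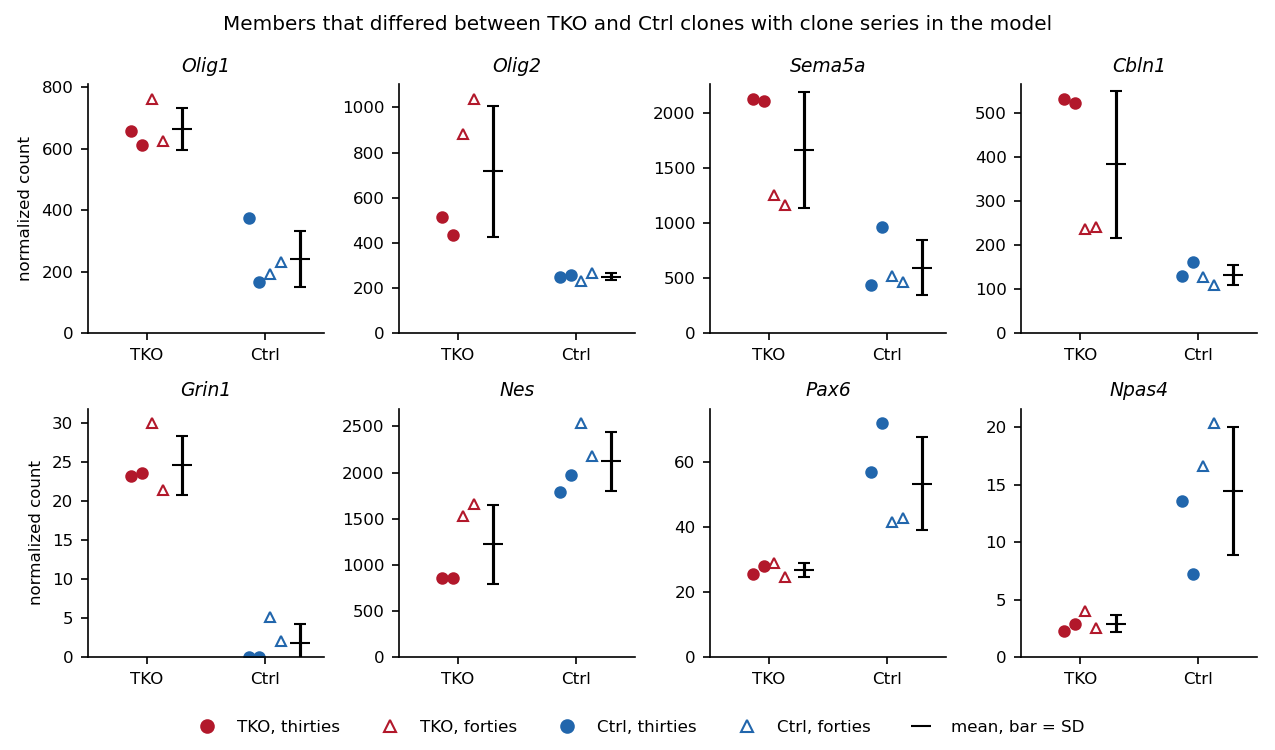
Normalized count (vertical axis, starting at 0) of the 8 members that differed between genotypes with clone series in the model, with TKO clones on the left and Ctrl clones on the right of each panel. Filled circles are clones of the thirties, open triangles are clones of the forties, and bars give the mean and SD of 4 clones. In each panel the TKO clones lie wholly above (Olig1, Olig2, Sema5a, Cbln1, Grin1) or wholly below (Nes, Pax6, Npas4) the Ctrl clones.

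Promoters are shown for 4 of those 8 members, 3 that were higher and 1 that was lower, so that the sequence next to the start of each gene can be read beside its level. The motif in capitals was picked for each after the matches were seen. They are the 250 bases before the start site in RefSeq on build GRCm38.p6, printed 5′ to 3′ along the gene. The table matched 23 of the 29 members. Capitals mark a CCAAT box (CCAAT) in Olig2, E-boxes (CANNTG) in Grin1, GC boxes (GGGCGG) in Sema5a and the core of a cAMP response element (TGACGTC) in Npas4. All 4 motifs were searched on both strands in all 4 promoters, and the matches in capitals overlapped no match of another motif.
Olig2, chr16:91225300-91225549, plus strand: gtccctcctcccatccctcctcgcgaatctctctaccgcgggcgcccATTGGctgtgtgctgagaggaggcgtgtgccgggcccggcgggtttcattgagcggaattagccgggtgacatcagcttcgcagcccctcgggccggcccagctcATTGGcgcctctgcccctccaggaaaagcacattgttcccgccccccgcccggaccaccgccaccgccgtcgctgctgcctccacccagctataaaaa
Grin1, chr2:25319188-25319437, minus strand: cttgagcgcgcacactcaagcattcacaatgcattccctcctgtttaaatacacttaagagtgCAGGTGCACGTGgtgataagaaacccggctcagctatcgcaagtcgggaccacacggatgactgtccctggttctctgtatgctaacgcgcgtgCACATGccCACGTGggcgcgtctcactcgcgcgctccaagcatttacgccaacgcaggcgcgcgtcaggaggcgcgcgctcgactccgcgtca
Sema5a, chr15:32244563-32244812, plus strand: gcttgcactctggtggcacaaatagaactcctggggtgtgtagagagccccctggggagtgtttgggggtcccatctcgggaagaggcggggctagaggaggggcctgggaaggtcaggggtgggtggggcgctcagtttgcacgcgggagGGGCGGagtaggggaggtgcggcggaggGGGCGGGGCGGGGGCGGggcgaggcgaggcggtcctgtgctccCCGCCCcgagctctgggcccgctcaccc
Npas4, chr19:4989972-4990221, minus strand: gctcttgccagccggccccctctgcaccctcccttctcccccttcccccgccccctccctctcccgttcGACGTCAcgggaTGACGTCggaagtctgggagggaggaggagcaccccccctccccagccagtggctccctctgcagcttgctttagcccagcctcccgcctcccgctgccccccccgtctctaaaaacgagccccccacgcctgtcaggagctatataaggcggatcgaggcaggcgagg

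The 4 promoters were of different make. The Olig2 promoter held 2 CCAAT boxes and 2 GC boxes, and at least 2 CCAAT boxes were found in 10.1% of the 32851 promoters of the table. The Grin1 promoter held 4 E-boxes, the general motif of basic helix-loop-helix factors, which does not tell one such factor from another. At least 4 were found in 3.8% of promoters and at least 1 in 66.2%. The Sema5a promoter held 5 GC boxes, some of them overlapping each other, a number that 1.9% of promoters reached, while 32.7% had at least 1. The Npas4 promoter held 2 copies of the cAMP response element core, the site of CREB, which 1.6% of promoters reached and of which 2.8% had at least 1. The Npas4 promoter also held 1 GC box, and the other pairs of promoter and motif gave no match in this window. GC content was 66.8% in Olig2, 58.8% in Grin1, 72.0% in Sema5a and 68.8% in Npas4, beside a median of 52.4% over all promoters. A match is a description of the letters and not a bound site.

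Both members of the Olig pair were higher in TKO clones. They are the basic helix-loop-helix factors that specify oligodendrocytes and motor neurons. Olig1 (NM_016968) had 655.8, 610.5, 762.3 and 624.1 normalized counts in TKO 35, 37, 47 and 48, against 373.8, 168.5, 193.2 and 232.3 in Ctrl 33, 34, 41 and 43. The lowest TKO clone was well above the highest Ctrl clone, which was Ctrl 33. The mean was 663.2 ± 68.7 in TKO clones and 241.9 ± 91.8 in Ctrl clones (SD, n = 4 each), a log2 difference of 1.47 ± 0.24 (standard error) with an edgeR adjusted p of 0.0455. That call is close to the threshold: leaving out Ctrl 34, Ctrl 41, Ctrl 43, TKO 35, TKO 37 or TKO 47 gave log2 differences of 1.33, 1.38, 1.46, 1.48, 1.51 and 1.40 with adjusted p of 0.0903, 0.196, 0.179, 0.133, 0.126 and 0.125 in that order. Once the clone series was in the model, the log2 difference was 1.49 ± 0.23 with an adjusted p of 0.0105, and it passed in all 15 alternative settings tried.

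Olig2 (NM_016967) had 514.9, 434.8, 881.5 and 1039 normalized counts in TKO 35, 37, 47 and 48, against 249.2, 256.3, 232.6 and 268.0 in Ctrl 33, 34, 41 and 43. The Ctrl clones were nearly level, and the TKO clones of the forties were higher than those of the thirties. The log2 difference was 1.51 ± 0.27 with an adjusted p of 0.0656 by genotype alone, and 1.44 ± 0.21 with an adjusted p of 0.00944 with the series in the model. The thirties gave 0.91 ± 0.17 and the forties 1.94 ± 0.16 (adjusted p = 0.0126 and 0.00183 by edgeR), and the test of the difference between the series gave an adjusted p of 0.0648. Nkx2-2, a homeodomain factor of ventral progenitors and oligodendrocyte precursors, was too low to judge, at 0 to 3.12 normalized counts over the 8 clones. Of 13 further oligodendrocyte lineage genes, 11 were tested and 0 passed in either direction, with or without the series in the model (edgeR; before adjustment 0 had a positive and 2 a negative difference at p under 0.05 in both).

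Olig2 and Olig1 are protein-coding neighbours on mouse chromosome 16, at 91225795-91228922 and 91270014-91272184 on the plus strand of build mm9, with 41.1 kb between them. Within 500 kb on either side, 14 other genes were tested. Their log2 differences between TKO and Ctrl ranged from -0.44 to 0.70 with a median of 0.06, and 0 passed the test (edgeR, genotype alone; 4 had p under 0.05 before adjustment). With the series in the model 2 of the 14 passed, Urb1 at -0.43 and Son at -0.42 (adjusted p = 0.0311 and 0.0401), both lower in TKO clones, where the Olig genes were higher.

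Among the synapse genes, Cbln1 and Grin1 were higher in TKO clones, and the presynaptic genes Snap25 and Syp were not called by genotype over all clones. Cbln1 encodes a secreted protein that bridges presynaptic neurexins and glutamate delta receptors in the cerebellum. Cbln1 (NM_019626, chromosome 8, 89992761-89996508, minus strand, mm9) had 533.6, 523.7, 236.4 and 242.0 normalized counts in TKO 35, 37, 47 and 48, against 130.0, 162.7, 127.7 and 110.0 in Ctrl 33, 34, 41 and 43. The TKO clones of the thirties were the highest, and those of the forties still lay above all Ctrl clones. The log2 difference was 1.54 ± 0.31 by genotype alone (adjusted p = 0.101) and 1.42 ± 0.19 with the series in the model (adjusted p = 0.00731). The thirties gave 1.84 ± 0.18 and the forties 1.01 ± 0.18, with adjusted p of 0.00164 and 0.0340, and the difference between them had an adjusted p of 0.129.

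Grin1 encodes the obligatory subunit of NMDA-type glutamate receptors. Its leading record (NM_008169, gene at chromosome 2, 25146701-25174707, minus strand, mm9) held 41, 49, 30 and 25 reads in TKO 35, 37, 47 and 48, against 0, 0, 5 and 2 reads in Ctrl 33, 34, 41 and 43. In normalized counts this was 23.2, 23.7, 30.1 and 21.4 in the TKO clones, against 0, 0, 5.19 and 2.04 in the Ctrl clones. The TKO clones were alike, while both Ctrl clones of the thirties, the shallowest libraries, held no read. The pooled reads were 145 in TKO and 7 in Ctrl clones, a ratio of 10.4 per unit of library size with a 95% exact interval of 4.91 to 26.3 that covers counting error only. In the thirties the floor of 3 reads over the Ctrl clones made Grin1 at least 8.31-fold higher in TKO clones, and in the forties the pooled ratio was 7.05 (3.20 to 18.3). The fitted log2 difference was 3.39 ± 0.58 by genotype alone (adjusted p = 0.0587) and 3.45 ± 0.53 with the series in the model (adjusted p = 0.0105).

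A second Grin1 record, NM_001177656, failed the filter with 33, 25, 15 and 3 reads in TKO 35, 37, 47 and 48, against 0, 0, 2 and 1 in Ctrl 33, 34, 41 and 43, and the remaining one was listed at 0 in all clones. Both of the first records held more reads in TKO clones of a series than in its Ctrl clones. Of 20 other glutamate receptor subunits and cerebellin partners, 9 were tested and 0 passed by genotype in either fit (edgeR; before adjustment 0 had a positive and 1 a negative difference at p under 0.05), while 14 were too low to judge.

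Sema5a encodes a transmembrane semaphorin that guides growing axons. Sema5a (NM_009154, chromosome 15, 32174568-32626096, plus strand, mm9) had 2130, 2106, 1256 and 1167 normalized counts in TKO 35, 37, 47 and 48, against 438.8, 961.9, 522.4 and 467.7 in Ctrl 33, 34, 41 and 43. The groups did not overlap, and Ctrl 34 stood apart from the other Ctrl clones. The log2 difference was 1.48 ± 0.30 by genotype alone (adjusted p = 0.0971) and 1.43 ± 0.20 with the series in the model (adjusted p = 0.00799). In the forties it was 1.29 ± 0.27 with an adjusted p that rounds to 0.05 and lay just above the threshold.

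The adhesion molecule Ncam1 was measured by 3 records. The leading one had 27.2, 20.3, 42.1 and 43.6 normalized counts in TKO 35, 37, 47 and 48, against 54.2, 51.8, 36.4 and 50.9 in Ctrl 33, 34, 41 and 43, and the groups overlapped. It was lower in TKO clones of the thirties (log2 difference -1.16 ± 0.30, adjusted p = 0.0388) and differed by -0.03 ± 0.28 in the forties. The call in the thirties was lost when the counts of its records were summed, with thinned libraries, and without Ctrl 33, Ctrl 34, Ctrl 41, Ctrl 43, TKO 35 or TKO 37. Its 2 other tested records differed by -0.23 and 0.17 on the log2 scale by genotype alone, so the records did not share a direction. Nrcam, a related adhesion molecule, was too low to judge at 0 to 5.42 normalized counts. Of 20 further guidance and adhesion genes, 17 were tested. With the series in the model, Cntn2, a contactin of axons, passed as higher at 0.66 ± 0.15 (edgeR adjusted p = 0.0340). Nrp1, a semaphorin coreceptor, passed as lower at -1.39 ± 0.22 (edgeR adjusted p = 0.0131). In that fit 2.60% of all records passed as higher and 3.10% as lower. By genotype alone 0 of the 17 passed, and 2 had a negative difference at p under 0.05 before adjustment. With the series 1 was higher and 6 lower before adjustment, beside 2000 and 2132 of all records.

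Among the progenitor genes the called members were lower in TKO clones. Nes encodes nestin, an intermediate filament of neural progenitors that other dividing cells, some fibroblasts among them, also make. Nes (NM_016701, chromosome 3, 87775000-87784373, plus strand, mm9) had 855.0, 856.7, 1526 and 1658 normalized counts in TKO 35, 37, 47 and 48, against 1790, 1973, 2540 and 2181 in Ctrl 33, 34, 41 and 43. Within each genotype the forties were higher than the thirties. The log2 difference was -0.80 ± 0.23 by genotype alone (adjusted p = 0.213) and -0.85 ± 0.13 with the series in the model (adjusted p = 0.0101), and without TKO 35 or TKO 37 the adjusted p was 0.0569 and 0.0542 at -0.79 in both.

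Pax6 encodes a paired-box factor of the eye and the dorsal neural tube. Pax6 (NM_013627, chromosome 2, 105509053-105543317, plus strand, mm9) had 25.5, 28.0, 29.1 and 24.8 normalized counts in TKO 35, 37, 47 and 48, against 56.9, 72.0, 41.5 and 42.8 in Ctrl 33, 34, 41 and 43. The TKO clones were level, and the Ctrl clones of the thirties were the highest. The log2 difference was -0.97 ± 0.22 with the series in the model (adjusted p = 0.0361) and -0.98 ± 0.25 by genotype alone (adjusted p = 0.180). The call with the series was lost without Ctrl 34, Ctrl 41, Ctrl 43, TKO 35, TKO 37 or TKO 47, where the log2 difference ranged from -1.08 to -0.81 and the adjusted p from 0.0661 to 0.149, and with libraries thinned to 1 depth (adjusted p = 0.143).

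The other judged progenitor genes did not pass by genotype in either fit. Sox1, the earliest definitive neural marker, averaged 21.9 ± 8.11 normalized counts in TKO clones and 21.5 ± 11.3 in Ctrl clones. Zic1, a zinc finger factor of the neural plate, averaged 12.1 ± 3.64 in TKO clones and 13.7 ± 0.502 in Ctrl clones. Sox21 averaged 342.9 ± 69.6 in TKO clones and 238.5 ± 41.8 in Ctrl clones, with a log2 difference of 0.53 ± 0.15 and an adjusted p of 0.0701 with the series in the model. Fabp7, a fatty acid binding protein of radial glia, stood at 0.965 to 8.31 normalized counts over the 8 clones, Pou3f2 at 0 to 4.32 and Hes5, a Notch target, at 0 to 5.76, and all 3 were too low to judge. Of 21 further progenitor genes, 19 were tested and 0 passed by genotype in either fit (edgeR; 0 at an unadjusted p under 0.05 by genotype alone, and 1 higher and 3 lower with the series).

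The proneural factors, which drive progenitors to become neurons, were low and variable. Neurog1 had 36.8, 34.3, 26.0 and 81.2 normalized counts in TKO 35, 37, 47 and 48, against 40.6, 105.1, 8.31 and 10.2 in Ctrl 33, 34, 41 and 43. The Ctrl clones of the forties were lowest and Ctrl 34 was highest, so the genotypes overlapped (log2 difference 0.15 ± 0.73, edgeR adjusted p = 0.942). That value averages opposite differences, -1.11 ± 0.52 in the thirties and 2.54 ± 0.64 in the forties (adjusted p = 0.189 and 0.0806). The edgeR test of the difference between the series gave an adjusted p of 0.0681 and did not pass. Neurod1 averaged 47.5 ± 12.5 in TKO clones and 104.6 ± 71.2 in Ctrl clones, with a log2 difference of -1.12 ± 0.45 and an adjusted p of 0.305. Neurog2 was too low to judge at 0 to 2.88. Of 15 further proneural and neuronal fate factors, 6 were tested and 0 passed by genotype in either fit (edgeR; 0 by genotype alone and 2 lower with the series at an unadjusted p under 0.05).

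Npas4 encodes a basic helix-loop-helix factor that neurons switch on within minutes of calcium entry. Npas4 (NM_153553, chromosome 19, 4984355-4989971, minus strand, mm9) held 4, 6, 4 and 3 reads in TKO 35, 37, 47 and 48, against 5, 5, 16 and 20 reads in Ctrl 33, 34, 41 and 43. In normalized counts this was 2.26, 2.90, 4.01 and 2.57 in the TKO clones, against 13.5, 7.20, 16.6 and 20.4 in the Ctrl clones. The read numbers of the thirties were alike, and the gap between the genotypes there came from the smaller size factors of Ctrl 33 and Ctrl 34. The log2 difference was -2.32 ± 0.41 by genotype alone (adjusted p = 0.0646) and -2.19 ± 0.37 with the series in the model (adjusted p = 0.0153). Without Ctrl 43, TKO 35, TKO 37 or TKO 47 the adjusted p with the series was 0.0551, 0.0623, 0.0522 and 0.0549. Of 10 other immediate early genes, all tested, 0 passed by genotype alone by edgeR. Before adjustment 0 had a positive and 2 a negative difference at p under 0.05. Fosb (-1.69 ± 0.33, edgeR adjusted p = 0.0261) and Egr2 (-1.02 ± 0.24, adjusted p = 0.0401) passed as lower with the series in the model, where 3.10% of all records did. The study had listed Fosb as lower from these same libraries, so its direction is not independent evidence.

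**Figure D2:**
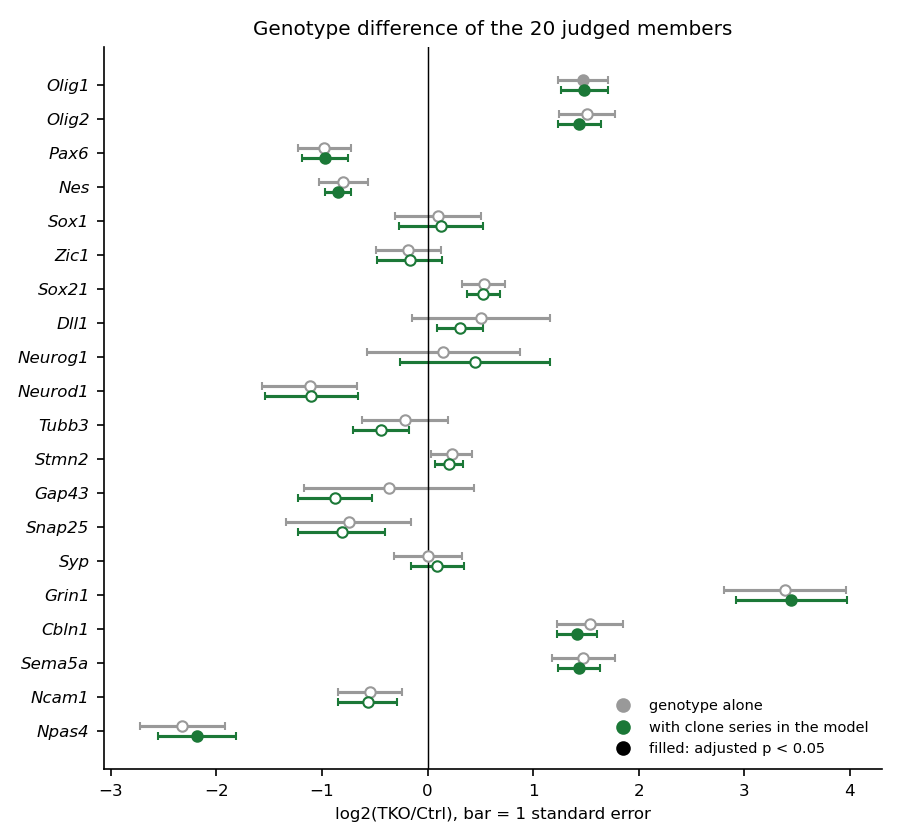
Log2 difference between TKO and Ctrl clones (horizontal axis, positive where TKO is higher) of the 20 members that could be judged, from the edgeR fit with genotype alone (grey) and with clone series in the model (green). Bars are 1 standard error and filled points passed an adjusted p of 0.05. Olig1 is the one filled grey point, and 8 green points are filled.

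The most abundant members were neuronal cytoskeletal genes, and neither of the leading ones passed by genotype over all clones. Per kilobase of record, over the 8 clones, Stmn2 (a microtubule-destabilizing phosphoprotein of growing neurites) stood at 3050 ± 753 normalized counts and Tubb3 (neuronal class III beta-tubulin) at 2250 ± 958. The spreads of these 2 neighbours over the clones overlapped, but within every single clone Stmn2 stood above Tubb3 per kilobase. Nes followed at 272 ± 96.7 normalized counts per kilobase, then Olig1 at 208 ± 109, Gap43 at 208 ± 156 and Olig2 at 197 ± 127. Their spreads over the clones overlapped as well. The order turned with genotype, since in TKO clones Olig1 (305 ± 31.7) and Olig2 (291 ± 118) stood above Nes (199 ± 69.7), and in Ctrl clones Nes (345 ± 52.4) stood above Olig1 (111 ± 42.3) and Olig2 (102 ± 6.00). Over all clones Cbln1 stood at 110 ± 74.1 normalized counts per kilobase and Sema5a at 105 ± 63.4. Sox21 stood at 76.5 ± 20.3, and the levels of the remaining judged members ran down to 2.64 ± 2.18 for Npas4. The level of the judged members therefore spanned 1155-fold per kilobase.

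**Figure D3:**
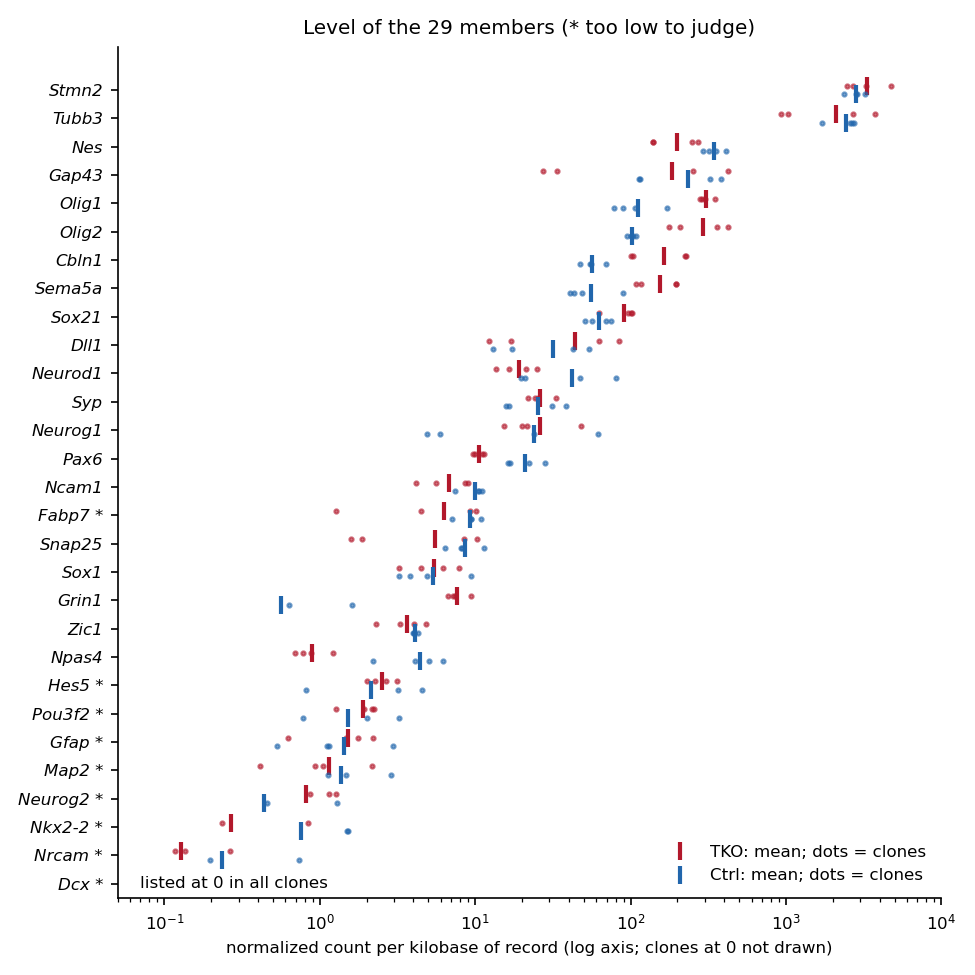
Level of all 29 members as normalized count per kilobase of record (horizontal log axis), with TKO clones in red above and Ctrl clones in blue below in each row. Dots are clones, bars are the mean of 4 clones, clones at 0 are not drawn and an asterisk marks the 9 members too low to judge. Stmn2 and Tubb3 lie far above the other members, and Dcx was listed at 0 in all clones.

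The 9 members too low to judge included textbook neuronal and glial markers. Map2, a dendritic microtubule protein, stood at 0 to 15.8 normalized counts over the 8 clones, and Gfap, the astrocyte filament, at 1.44 to 8.13. Dcx, doublecortin of migrating neurons, was listed at 0 in all 8 libraries in each of its 4 records, and 3 reads over a group would be 0.499 normalized counts in TKO and 0.997 in Ctrl clones. Of these 9 members 5 had several records in the table, and of the 20 judged members 2 had. Over the whole table, 28.4% of records of symbols with several records were at 0 in all libraries and 13.2% of records of symbols with 1 record. The sources used here do not give the counting rule for reads shared between records, so a low value of such a member does not show that its RNA was absent.

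Between the clone series, 4 members were higher in the forties and 3 were lower, where 9.84% of all records passed as higher and 9.56% as lower (edgeR, genotype in the model). The series did not overlap for 4 tested members with the forties higher and for 1 with the forties lower. Of all 16235 tested records, 1356 and 1254 did the same. Markers of some other cell states moved with the series. The sum of 5 primed epiblast markers was 1123 to 3103 normalized counts in the forties and 458 to 699.8 in the thirties, with a median log2 difference of 1.80 and 3 called as higher. The sum of 5 mesoderm markers was 174.3 to 374.9 in the forties and 73.1 to 89.3 in the thirties, with a median of 1.86 and 3 called. Of 5 endoderm markers 2 were called as higher, but their sum overlapped between the series. It was 157.3 to 486 in the forties and 133.9 to 176 in the thirties. The part of these markers in the series differences of the members was not tested.

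Gap43, a growth cone protein, had 332.6 and 554.0 normalized counts in TKO 47 and 48 and 424.8 and 499.2 in Ctrl 41 and 43, against 44.1 and 35.7 in TKO 35 and 37 and 149.0 and 151.2 in Ctrl 33 and 34. Every clone of the forties was above every clone of the thirties, and the log2 difference was 2.55 ± 0.37 with an adjusted p of 0.00240. Tubb3 had 4722 and 6548 normalized counts in TKO 47 and 48 and 4827 and 4648 in Ctrl 41 and 43, against 1806 and 1620 in TKO 35 and 37 and 3012 and 4530 in Ctrl 33 and 34. Here too the series did not overlap (log2 difference 1.03 ± 0.27, adjusted p = 0.0268), and the call was lost without TKO 35, TKO 37 or TKO 47 (adjusted p = 0.110, 0.101 and 0.0606).

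Snap25, a SNARE protein of the presynaptic membrane, had 22.0 and 18.0 normalized counts in TKO 47 and 48 and 17.7 and 24.5 in Ctrl 41 and 43, against 3.96 and 3.38 in TKO 35 and 37 and 13.5 and 17.3 in Ctrl 33 and 34. The TKO clones of the thirties were far below the other 6, and the log2 difference between the series was 1.44 ± 0.42 with an adjusted p of 0.0383. That call was lost without Ctrl 43, TKO 35, TKO 37, TKO 47 or TKO 48 (adjusted p = 0.0687, 0.143, 0.140, 0.0997 and 0.0841). Nes was the fourth member higher in the forties, at 0.61 ± 0.13 (adjusted p = 0.0102). The lowest Stmn2 count of the forties was above the highest of the thirties, but its adjusted p was 0.0509. Syp, a synaptic vesicle protein, averaged 77.3 normalized counts in the forties and 50.6 in the thirties and was not called (adjusted p = 0.134).

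Dll1, a Notch ligand made by cells that are becoming neurons, ran the other way. Dll1 had 42.1 and 58.1 normalized counts in TKO 47 and 48 and 59.2 and 44.8 in Ctrl 41 and 43, against 291.4 and 214.8 in TKO 35 and 37 and 146.3 and 185.8 in Ctrl 33 and 34. It was lower in every clone of the forties, with a log2 difference of -2.02 ± 0.22 and an adjusted p of 0.000961, and passed in all 15 alternative settings tried. By genotype it differed by 0.51 ± 0.65 with an adjusted p of 0.731. Cbln1 and Sema5a were lower in the forties as well, at -0.77 ± 0.19 and -0.67 ± 0.20 (adjusted p = 0.0210 and 0.0388). Without single clones the adjusted p of the series difference reached 0.0783 for Cbln1 (TKO 35, TKO 37, TKO 47 or TKO 48 left out, lowest 0.0588) and 0.112 for Sema5a (any clone but Ctrl 33 left out, lowest 0.0586).

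**Figure D4:**
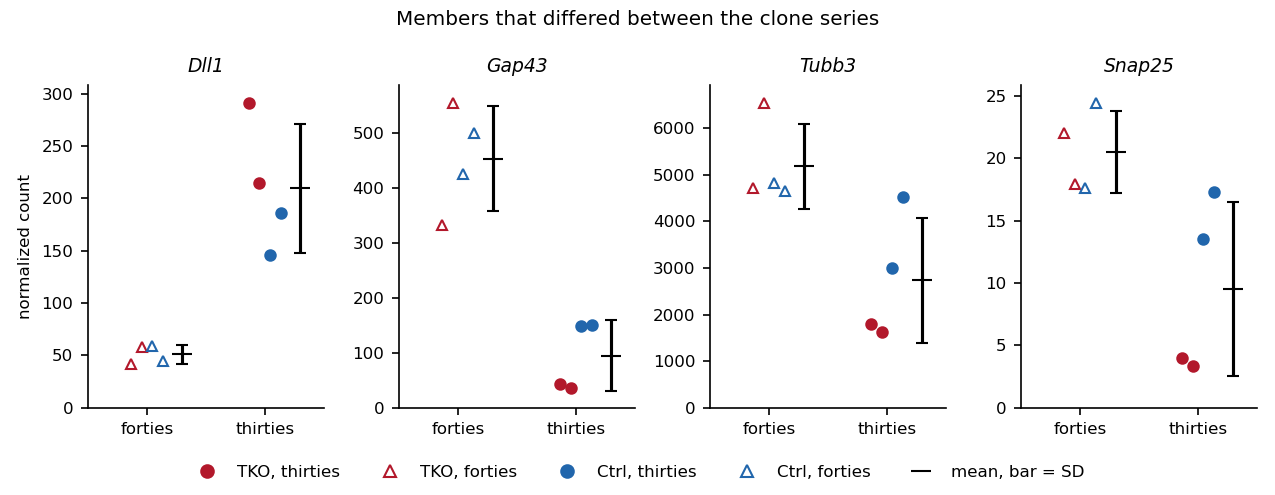
Normalized count (vertical axis, starting at 0) of 4 members that differed between the clone series, with the forties on the left and the thirties on the right of each panel. Red marks TKO and blue marks Ctrl clones, circles and triangles mark the series, and bars give the mean and SD of 4 clones. The series do not overlap in any of the 4 panels, and TKO 35 and 37 are the lowest clones for Gap43, Tubb3 and Snap25.

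Within the thirties, 5 members were higher and 6 lower in TKO clones, where 4.83% of all records passed as higher and 7.05% as lower (edgeR, 2 clones of each genotype with the spread shared over all 8). The higher members were again Olig1, Olig2, Sema5a, Cbln1 and Grin1. The lower ones were Nes, Pax6, Tubb3, Gap43, Snap25 and Ncam1. Within the forties, 4 members were higher (Olig1, Olig2, Cbln1 and Grin1) and 2 lower (Nes and Npas4), where 0.813% of all records passed as higher and 1.17% as lower. Olig1, Olig2, Cbln1 and Nes were thus called in both series. Grin1 was too, but it passed the filter only through the TKO clones. Grin1 and Npas4 therefore add no support to these counts either. The study picked Olig1, Olig2 and Cbln1 out of these same libraries, so their directions are not independent evidence. These calls rested on few clones. The numbers that follow count all members called in each alternative. Without TKO 47 the calls of the forties included Neurog1, which was not called there with all clones. In alternatives chosen after seeing the data, the 11 members of the thirties became 1 (Cbln1) without TKO 35, 2 (Nes and Cbln1) without TKO 37 and 7 with thinned libraries, and the 1928 records called there became 27 without TKO 35. The 6 members of the forties became 0 without Ctrl 41, 1 (Olig2) without Ctrl 43, TKO 35, TKO 37 or TKO 48, and 2 without TKO 47 or with thinned libraries, and the 322 records called there became 7 without Ctrl 41.

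In the thirties Gap43 differed by -1.91 ± 0.28 between the genotypes (adjusted p = 0.00649) while its log2 difference in the forties was -0.06 ± 0.24. Tubb3 differed by -1.14 ± 0.20 in the thirties (adjusted p = 0.0110) and by 0.25 ± 0.20 in the forties, and Snap25 by -2.08 ± 0.46 (adjusted p = 0.0221) and -0.08 ± 0.33. The test of the difference between the series gave adjusted p of 0.0504 for Gap43, 0.0513 for Tubb3 and 0.107 for Snap25, and so did not pass. For that test 0 members passed in either direction (edgeR; without adjustment 7 were higher and 3 lower at p under 0.05, and DESeq2 called 5), beside 1.03% of all records with a higher signed difference in the forties than in the thirties and 0.265% with a lower one. Over all records 1737 were higher and 1300 lower before adjustment, and DESeq2 called 575 as higher and 359 as lower.

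Markers of fibroblasts also differed between the genotypes of the thirties. The summed level of 9 fibroblast markers was 21990 and 20130 normalized counts in TKO 35 and 37, against 58650 and 35920 in Ctrl 33 and 34, and 35450 and 25870 in TKO 47 and 48, against 20760 and 20950 in Ctrl 41 and 43. In the thirties 6 of the 9 were lower in TKO clones and 0 higher, with a median log2 difference of -1.20, and in the forties the median was 0.57 with 0 called (5 were higher at p under 0.05 before adjustment). Of the 9 markers 3 passed the test of the difference between the series. Depth also differed most in the thirties. The part of either in the genotype differences within the series was not tested.

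**Figure D5:**
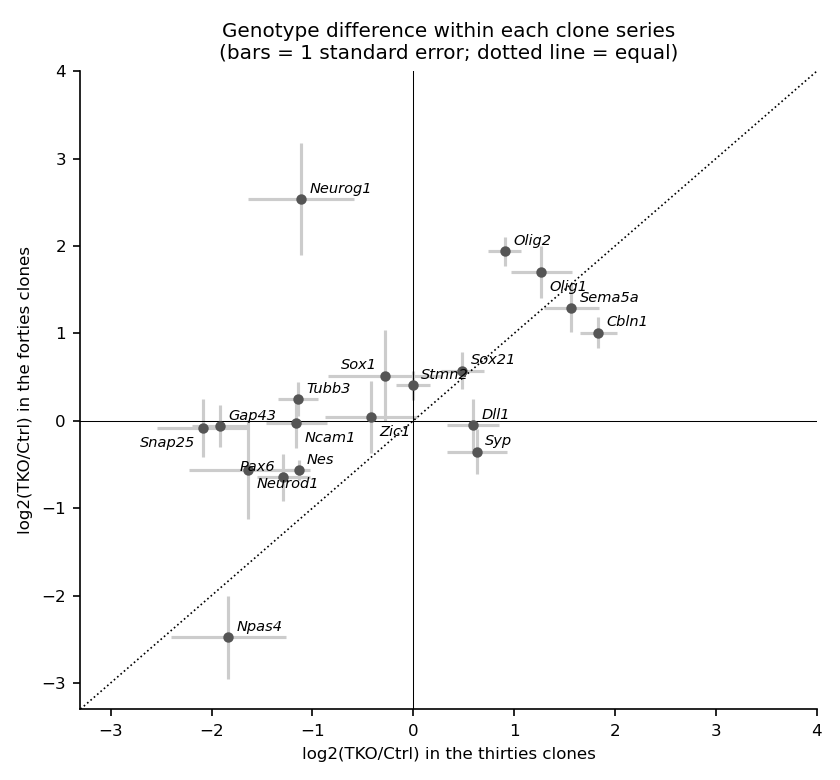
Log2 difference between TKO and Ctrl clones within the forties (vertical axis) against that within the thirties (horizontal axis) for the judged members except Grin1, whose Ctrl clones of the thirties held 0 reads. Bars are 1 standard error and the dotted line marks equal differences. Olig1, Olig2, Sema5a, Cbln1 and Sox21 lie at positive values and Nes, Pax6, Neurod1 and Npas4 at negative values on both axes, while Gap43 and Snap25 lie near 0 on the vertical axis and at -1.91 and -2.08 on the horizontal one.

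Of 24 further neuronal genes, 20 were tested, and those that passed by genotype were lower in TKO clones. By genotype alone 1 passed, Nrsn1, a membrane protein of neurites, which averaged 43.5 ± 5.83 normalized counts in TKO clones and 175.1 ± 46.3 in Ctrl clones (log2 difference -1.998 ± 0.246, adjusted p = 0.0106). With the series in the model 3 passed as lower and 0 as higher, where 3.10% and 2.60% of all records did. These were Nrsn1 at -1.98 ± 0.20 (edgeR adjusted p = 0.00169), Nsg2 at -1.78 ± 0.26 (adjusted p = 0.00944) and the neurofilament-related Ina at -1.28 ± 0.22 (adjusted p = 0.0178). By genotype alone 0.154% of all records passed as lower. The study had listed Nrsn1 and Nsg2 as lower from these same libraries, and the gene list was chosen with earlier results known. The directions of Nrsn1 and Nsg2 are therefore not independent evidence. Of 5 neural crest markers 3 were tested, and by edgeR 0 passed by genotype alone and 1 passed as lower with the series. Their summed level was 605.7 to 952.5 normalized counts in TKO clones and 967 to 1339 in Ctrl clones. The 5 neural plate markers, all of them members, summed to 52.6 to 82.9 in TKO clones and 82.5 to 113.8 in Ctrl clones. Pax6 was the 1 neural plate marker that passed with the series. Of 7 astroglial genes 4 were tested and 0 passed by genotype in either fit (edgeR; 0 at an unadjusted p under 0.05 in both). Rest, the repressor of neuronal genes in non-neuronal cells, averaged 4314 ± 891 normalized counts in TKO clones and 5906 ± 1252 in Ctrl clones. It was lower at -0.45 ± 0.08 with the series in the model (adjusted p = 0.0176) and overlapped between genotypes, with an adjusted p of 0.305 by genotype alone, while 0 of its 7 listed corepressors passed.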

How the data were processed

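RNA-seq libraries (TruSeq, single end, 50 cycles) of 4 TKO and 4 Ctrl clones were analysed from 1 table. The deposited values are raw read counts per RefSeq record, which the authors made with BWA 0.7.5a against mouse transcripts of build mm9, beside a column of record lengths. The rule for reads that match several records, and the use of strand, are not given in the sources used here. Of 27052 records 26321 were named through a RefSeq table (GRCm38.p6, names only).

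Here counts were scaled by median-ratio size factors, filtered (at least 5 reads in at least 4 libraries) and tested in R 4.3.3 with edgeR 4.0.16 (quasi-likelihood, adjusted over all 16235 records), with genotype alone, with clone series added and with their interaction. The standard error is the absolute log2 difference over the root of F. Alternatives used limma 3.58.1 (voom), DESeq2 1.42.0, TMM scaling, other filters, sums over the records of a symbol, thinning of all libraries to the depth of the shallowest, and leaving out each clone. Scripts were tested on simulated data. The members and gene lists were chosen with earlier results of these data known. All members are reported, with per-clone values for those called in any fit and for the 6 the study names, and others by range or mean. Of the wider lists, counts are given with up to 4 called genes each, and Rest, Pou5f1 and Nanog in any case. Loci are from GENCODE M1 on mm9.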

Additional observations from a re-analysis of the deposited data

Results flagged for a closer look

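In 40 groups of 4 clones (20 judged members in each genotype), 3 single clones stood apart from the rest of their group by Dixon's ratio, where chance gives about 1 in 20 groups. Sox21 was low in TKO 47, at 239.4 normalized counts against 365.9 to 387.0 in the other TKO clones. Tubb3 was low in Ctrl 33, at 3012 against 4530 to 4827 in the other Ctrl clones. Sema5a was high in Ctrl 34, at 961.9 against 438.8 to 522.4 in the other Ctrl clones, which leaves it below every TKO clone.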

How the results depend on the processing

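By genotype alone, 1 member was called, and the number was 3 with no filter, 5 with DESeq2, 2 with limma-voom, 0 with libraries thinned to the smallest total, 8 with clone series as a covariate and 0 to 3 with each clone left out. Over all records 39 were called, against 513 with DESeq2, 25 with thinned libraries and 15 to 86 with each clone left out. With the series in the model 8 members and 926 records were called. These became 5 members with thinned libraries and 5 to 9 with each clone left out, and 2200 records with DESeq2 and 91 to 1623 with each clone left out. The 7 members called between the series became 3 to 8 with each clone left out. Within the thirties 11 members became 7 with thinned libraries and 1 to 11 with each clone left out, and within the forties 6 became 2 and 0 to 8, all chosen after seeing the data. For the interaction, 0 members became 1 with TMM scaling, with at least 10 reads in every library, with limma-voom and with thinned libraries, 4 with no filter, 5 with DESeq2 and 0 to 5 with each clone left out. The 8 members whose genotypes did not overlap became 5 with thinned libraries. Olig1, Olig2, Cbln1 and Sema5a were called with the series in all 15 alternatives. Grin1 was called in the 12 that gave it an adjusted p, but it passed the filter only through the TKO clones, so its calls add no support. By genotype, the sign turned for members near 0. Sox1 was -0.12 when thinned and -0.12 to 0.43 with each clone left out, Syp was -0.003 with DESeq2 and -0.17 to 0.28 with each clone left out, and with each clone left out the ranges were -0.015 to 0.93 for Dll1, -0.30 to 1.38 for Neurog1, -0.65 to 0.033 for Tubb3 and -1.2 to 0.001 for Gap43. The causes were not tested. No paired analysis was possible because the labels name no litter or embryo by which TKO and Ctrl clones could be paired. With 8983203 reads in the shallowest library, members under 10 normalized counts in both genotypes were not judged.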
